A study of Mus musculus with 6 samples.

Results

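Spread among replicate cultures was examined in mouse embryonic stem cells treated with inhibitors of BMP signalling. The members are the 3 libraries labelled R2i_BMPi, out of 6 in the series, and the 3 libraries labelled R2i_control served as the yardstick. All 6 came from the Royan B20 line, grown on gelatin-coated plates with LIF and passaged 7 times in R2i, a medium that holds PD0329501 (1 µM) to block MEK and SB431542 (10 µM) to block TGF-beta, activin and nodal receptors. The R2i_BMPi cultures, called BMP-inhibited after their label, also received noggin (250 nM), a secreted protein that binds BMP ligands, and dorsomorphin (5 µM), a small molecule that blocks BMP type I receptors. Inhibitors of MEK and of TGF-beta receptors were thus present in either group, the 2 added agents were given together, and the length of the treatment is not stated in the labels. The labels call the libraries biological replicates without saying whether cultures were kept or treated separately, so the tests below compare these libraries and not conditions. The labels name no batch or date.

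In mouse embryonic stem cells, BMP ligands act through type I and type II receptor kinases that phosphorylate SMAD1 and SMAD5, and the Id genes are the classical direct targets. These cells exist in several interchanging states. A small share of cells at any time enters a two-cell-like state marked by the Zscan4 family, and cells can also move from naive pluripotency towards the formative epiblast or express trophectoderm genes. The average level in a bulk library therefore depends on how many cells are in each state as well as on the RNA per cell, and these cannot be told apart here.

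Libraries held 31743968, 31474666 and 33774524 gene counts in BMP-inhibited replicates 1, 2 and 3, and 32720441 to 35322844 in controls. Between 22363 and 22849 genes had a count in a library, and 15951 genes passed the filter on low counts. The pluripotency markers of the line were present in each library, with Pou5f1 at 794 to 955 scaled CPM, counts relative to library size. Markers of fibroblasts or feeder cells, of which 8 of 13 passed the filter and 1 was at 0 in every library, summed to 18.9 to 19.9 CPM in BMP-inhibited libraries and 9.27 to 11.4 CPM in controls. Of 7 macrophage and blood markers 2 passed the filter and 3 were at 0 throughout, with sums of 23.9 to 29.4 CPM against 17.3 to 18.4 CPM. The part of such cells in the spread was not tested. Among genes named below, Sox1, Actg1, H1fx and Malat1 overlap the exons of another gene on their own strand. Bmp4, Pou5f1, Scand1, Thbs1, Rapsn, Isg20l2, Calu, Dek, Gbx2, Lef1, Id4, Bmp8b, Fst, Krt8, Gata6, Cebpb, Bnip3, Ctsa, Jund, Tet2, H1fx and Malat1 overlap an antisense gene. Their counts are uncertain, since the strand setting of the counting is not known.

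BMP-inhibited cultures differed among themselves at many more genes than the controls did. A gene was counted as varying when its 3 counts departed from a single common level by more than Poisson counting noise (edgeR's goodness-of-fit test, adjusted p under 0.05). By this rule 7549 genes varied among BMP-inhibited libraries, 47.3% of those tested, and 1649 among controls (10.3%). Genes that varied and also spanned at least 1.5-fold from the lowest to the highest library numbered 1377 (8.63%) and 308 (1.93%), and at least 2-fold 717 (4.5%) and 203 (1.27%). Of the 1649 genes that varied among controls, 965 also varied among BMP-inhibited libraries (58.5%, or 6.05% of all genes tested). Leaving out BMP-inhibited replicate 1, 2 or 3 left 4582, 4002 and 5741 varying genes from the other pair of libraries, and 771, 551 and 869 spanning 1.5-fold. For controls the same counts were 978, 529 and 902, and 168, 106 and 142.

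The differences between cultures were small for most genes. The biological coefficient of variation (CV), the spread left after counting noise is removed, had a median of 5.91% over all genes tested in BMP-inhibited libraries and 1.97% in controls. An SD from 3 values is imprecise, with a 95% interval from 0.521 to 6.28 times its value, so single CVs are descriptions. Among genes with a mean of 1000 counts or more over the 6 libraries the medians were 4.53% and 1.45%. They were 7.30% and 3.15% at 100 to 1000 counts, and 15.5% and 8.78% below 100 counts. Long noncoding RNAs had medians of 13.9% and 5.05%, and protein-coding genes 5.58% and 1.90%. Large ratios were mostly a matter of scarce transcripts: 1039 of the 1377 genes had a mean under 100 counts in BMP-inhibited libraries, 11 had 1000 or more, and 14 were at 0 in a library.

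**Figure D1:**
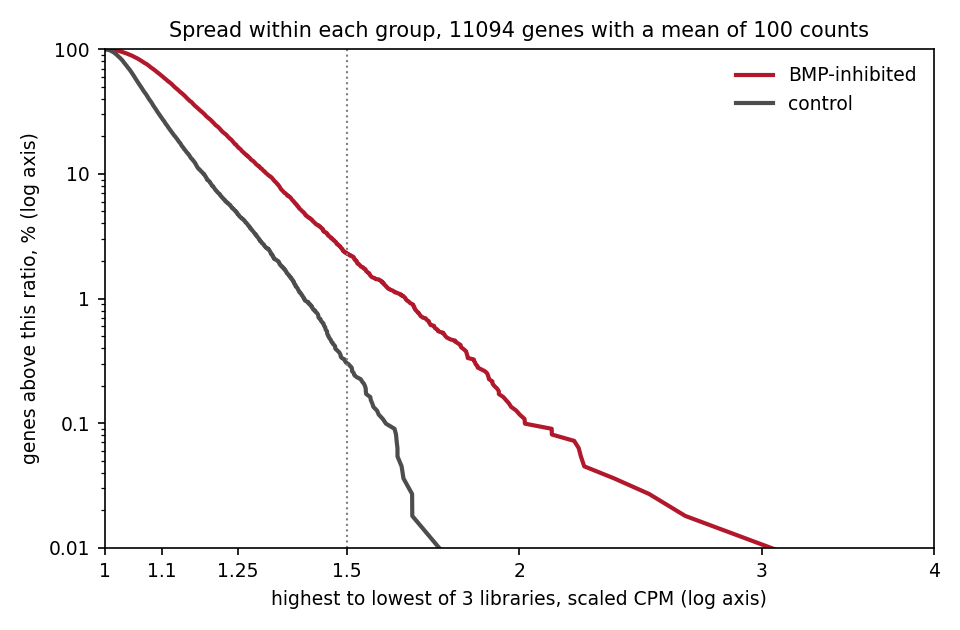
Share of genes (vertical, %, log axis) whose highest-to-lowest ratio of scaled CPM over the 3 libraries of a group exceeds the value on the horizontal axis (log axis), for the 11094 genes with a mean of at least 100 counts in each group. At 1.5-fold, dotted, 2.29% of genes lie above in BMP-inhibited libraries and 0.306% in controls.

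The plot of ratios shows that the excess held over the whole range and was not confined to a few outlying genes. Of 11094 genes with at least 100 counts on average in each group, 1820 spanned 1.25-fold or more in BMP-inhibited libraries and 525 in controls. The largest ratios were 3.19 and 1.77.

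The spread itself was compared between groups. The variance of log2 CPM was larger in BMP-inhibited libraries for 70.8% of 15901 genes. A gene-by-gene F test on 2 and 2 degrees of freedom needs a 39-fold variance ratio for an unadjusted p of 0.05. It called 2 genes after adjustment (0.0126%), while 1296 genes (8.15%) had the larger variance in BMP-inhibited libraries and 182 (1.14%) in controls at an unadjusted p under 0.05. Per library, the root mean square deviation from the group's own mean over the 11094 genes was 0.109, 0.118 and 0.0916 log2 units in BMP-inhibited libraries and 0.0639 to 0.0646 in controls. The groups did not overlap, and an exact two-sided permutation test gave p = 0.1, the smallest that 3 against 3 libraries allow.

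No single culture made the whole difference. BMP-inhibited replicates 1 and 2 differed by at least 1.25-fold at 10.9% of the 11094 genes, replicates 2 and 3 at 7.86%, and replicates 1 and 3 at 5.35%. Every pair of controls differed at 2.06% to 2.35%. Each pair of BMP-inhibited libraries thus differed at more genes than any pair of controls, by this measure and by counting noise.

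Replicate 2 was the culture that most often stood apart among genes spanning 1.5-fold. With 3 libraries only 2 principal axes exist within the group. On the first, which held 64.0% of its variance, replicates 1, 3 and 2 lay at -9.62, -2.35 and 11.97. That axis thus set replicate 1 against replicate 2. On the second, with 36.0%, replicate 3 stood apart at -9.36, with replicates 1 and 2 at 6.21 and 3.15. Among the 1377 genes spanning 1.5-fold, replicate 2 was farthest from the other libraries in 586 (42.6%), replicate 1 in 431 (31.3%) and replicate 3 in 360 (26.1%). In its 586 genes replicate 2 was high 295 times and low 291 times. Among the controls' 308 genes the shares ran from 31.2% to 35.4%. Above 2-fold, where transcripts were scarcer, replicates 1, 2 and 3 had 34.7%, 36.0% and 29.3%, and controls 28.6% to 38.9%. Over all varying genes replicate 2 had 41.4%, and control replicate 2 had 40.7% in its own group, so a lead of this size was also seen among controls there.

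Replicate 2 was also the culture closest to the controls. All 3 BMP-inhibited values lay above the 3 control values in 5500 genes (34.5% of those tested) and below them in 5440 (34.1%). Over these 10940 genes replicate 2 was nearest to the control range in 47.7%, replicate 1 in 29.0% and replicate 3 in 23.3%. The share of replicate 2 was 49.2% of the genes above control and 46.2% of those below. Among the 685 of these genes that also spanned 1.5-fold it was 58.0%. Control libraries were nearest to the BMP-inhibited range at similar rates, 32.6% to 34.2%.

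**Figure D2:**
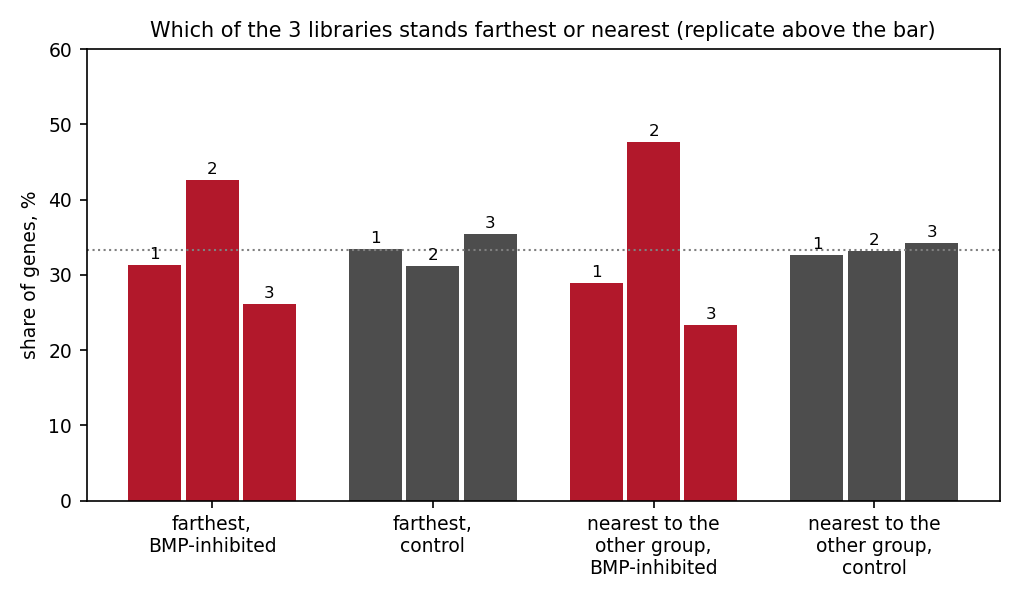
Share of genes (vertical, %) for which each replicate, numbered above its bar, is farthest from the others of its group (1377 genes in BMP-inhibited and 308 in control libraries spanning 1.5-fold) or nearest to the other group's range (10940 genes whose groups do not overlap). BMP-inhibited replicate 2 reaches 42.6% and 47.7%, while the control bars lie between 31.2% and 35.4%; the dotted line marks equal shares.

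The libraries also differed in a way that follows gene structure. Across 12743 genes, the deviation of a BMP-inhibited library from its group mean correlated with exonic GC content at r = -0.20, 0.15 and 0.045 in replicates 1, 2 and 3, and with log2 exonic length at 0.25, -0.15 and -0.10. In controls no such r exceeded 0.084 in size. Genes within 1 library share its preparation and are not independent. When smooth offsets over GC content and length were removed, 6873 genes varied, of which 6195 were among the 7549. Whether this pattern arose in the cells or in library preparation was not tested. Chromosome medians lay between -0.030 and 0.015 log2 units of the group mean, and between -0.0059 and 0.0096 in controls.

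Gene lists are described below by how many members varied and by their median CV, beside 47.3% and 5.91% for all genes tested. In each list the 3 values or counts are for replicates 1, 2 and 3 in that order, and members said to span 1.5-fold are those that also varied. Of 51 lists, 49 had the higher median CV in BMP-inhibited libraries and 2 in controls, those of ribosomal proteins and fibroblast markers. The lists overlap, with 1203 entries for 1138 different symbols, so their counts are not independent. Without replicate 2 the count over all genes was 4002 in place of 7549, which is the background for the list counts without it below. Over all 15951 genes tested, replicates 1, 2 and 3 were lowest in 5772, 5860 and 4319, and highest in 5176, 5620 and 5155. These are the background for counts of members lowest or highest in a culture. Median CV was above that of all genes in 20 lists. Among lists with at least 8 members tested, two-cell-like genes (18.3%) and trophectoderm genes (14.9%) had the highest medians, as the plot of list CVs shows. BMP-SMAD targets (13.7%) and nodal and TGF-beta response genes (10.4%) came next. The median level in these lists was 3.17, 13.6, 10.6 and 19.3 CPM, against 18.7 CPM over all genes tested.

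**Figure D3:**
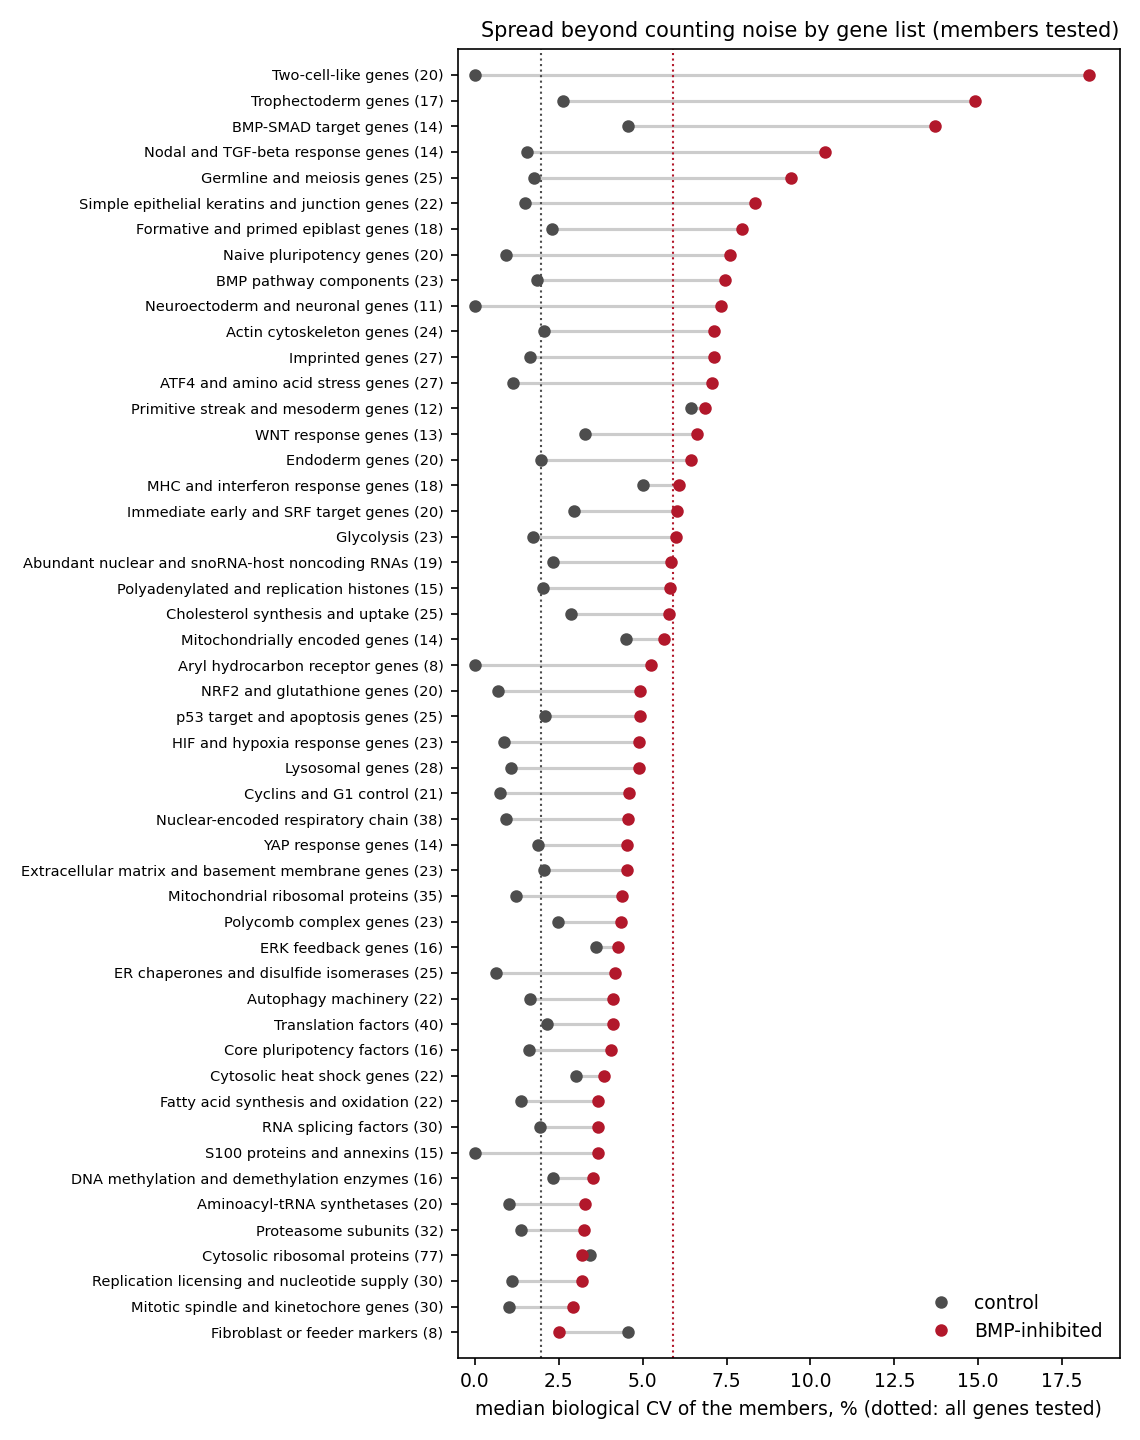
Median biological CV of the members (horizontal, %) of each gene list with at least 8 members tested (number in parentheses), in BMP-inhibited (red) and control (grey) libraries; dotted lines mark all genes tested, at 5.91% and 1.97%. Two-cell-like genes lie at 18.3%, and mitotic genes at 2.93%. The control point of two-cell-like genes, at 0%, comes from levels near 0 CPM.

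Two-cell-like genes had the highest median CV of the lists with at least 8 members tested, though not the highest share of varying members. The median over the 20 members tested was 18.3%, where genes below 100 counts had 15.5%. Of these, 11 varied (55%) and 8 spanned 1.5-fold. The controls, where 0 varied, are no yardstick for this list, since their levels were too close to 0. Without replicate 2 only 1 of the 20 varied, and without replicates 1 and 3 it was 11 and 7. Summed over the list, levels were 75.6, 54.4 and 82.5 CPM in BMP-inhibited libraries and 0.83 to 0.99 CPM in controls. Members with almost no control reads passed the filter on low counts through the BMP-inhibited libraries. The group difference in this sum is therefore partly fixed by the filter. Replicate 2 was the lowest of the 3 in 18 of 20 members. Zscan4d, a zinc finger protein involved in telomere lengthening, stood at 9.33, 4.78 and 8.49 CPM, and at 0 in all but 1 control library. Pramef25, a member of the PRAME family, stood at 5.68, 3.53 and 7.24 CPM and at 0 in each control. Both were lowest in replicate 2, with highest-to-lowest ratios of 1.95 and 2.05. Zscan4, Pramef and Usp17l genes are families of near-identical copies, so the split of reads among members is uncertain.

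Trophectoderm genes and the keratins of simple epithelia followed the same order of cultures. The lists share members, Krt19 among them, so this agreement is partly fixed in advance. Of 17 trophectoderm genes 13 varied (median CV 14.9%, 2.63% in controls), and replicate 2 was lowest in 14. Without it 6 varied. Of 22 keratin and junction genes 18 varied (8.36%, 1.49% in controls), with replicate 2 lowest in 13, and 9 varied without it (12 without replicate 1). Krt8, a keratin of simple epithelia, was at 88.4, 75.0 and 106 CPM against 17.3 to 18.9 CPM in controls. Plac1, a placental gene, was at 3.16, 2.15 and 4.60 CPM, and Dlx3, a homeobox factor of placenta and skin, at 5.32, 3.40 and 6.0 CPM. In these 3 genes replicate 3 was highest, replicate 2 lowest, and no BMP-inhibited value reached the control range.

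Genes of the actin cytoskeleton and p53 targets varied by less, again with replicate 2 low. Of 24 actin genes 20 varied (median CV 7.13%), and replicate 2 was lowest in 15. Actg1, cytoplasmic gamma-actin, stood at 695, 654 and 835 CPM. Of 25 p53 target and apoptosis genes 19 varied (4.91%) and 0 varied among controls. The lowest culture was replicate 2 in 19 of them. Replicate 2 was nearest to the control range in 21 of the 25, beside 47.7% of all genes whose groups did not overlap. Without it 6 of the 25 varied. Bcl2l11, which encodes the cell-death protein BIM, stood at 45.7, 32.9 and 42.2 CPM against 18.3 to 19.4 CPM in controls.

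Naive pluripotency genes moved the opposite way. Of 20 members 19 varied, with a median CV of 7.59% against 0.93% in controls, where 1 varied. Without replicate 2, 12 members varied. The highest culture was replicate 2 in 14, and the lowest replicate 3 in 10. Pecam1, a surface adhesion protein of naive cells, was at 94.5, 121 and 91.4 CPM. Mras, a RAS-family GTPase, was at 30.2, 43.3 and 33.9 CPM. Gbx2, a homeobox factor downstream of STAT3, stood at 9.07, 14.3 and 9.80 CPM. Dppa3, a maternal-effect gene of naive cells and the germline, ran against the list at 57.8, 40.2 and 57.5 CPM. Replicate 2 thus lay towards the controls for Pecam1 (140 to 147 CPM in controls) and Dppa3 (9.79 to 11 CPM), but away from them for Mras (16.5 to 18.1 CPM) and Gbx2 (4.34 to 4.65 CPM).

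The core pluripotency factors were steadier than the naive genes, though near other genes with high counts. OCT4 is encoded by Pou5f1, which stood at 826, 877 and 955 CPM, a ratio of 1.16 (edgeR's goodness-of-fit test, adjusted p = 7.63e-65). Sox2, its binding partner, was at 360, 407 and 356 CPM, and Nanog at 628, 638 and 652 CPM, a ratio of 1.04. Each differed by more than counting noise, as their high counts make small differences visible. Of 16 members 14 varied, none by 1.5-fold, and 12 stayed within 1.1-fold. The list's median CV was 4.05%, against 1.63% in controls. All 16 members had at least 1000 counts on average in each group. Genes with a mean of 1000 counts or more had medians of 4.53% and 1.45%, and 67.1% of them varied among BMP-inhibited libraries. Without replicate 3, 9 members of the list varied.

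Genes of the formative epiblast, neuroectoderm and germline spread to different degrees. Of 18 formative genes 10 varied, or 5 without replicate 2 (median CV 7.97%), among them Lef1, a WNT effector, at 11.8, 8.24 and 12.0 CPM. Of 11 neural genes 5 varied, or 1 without replicate 2 (7.35%), and replicate 2 was the highest in 8. Sox1, an early neuroectoderm factor, was at 3.26, 5.87 and 2.65 CPM against 6.61 to 7.42 CPM in controls. Msi1, an RNA-binding protein of neural progenitors, was at 24.3, 34.1 and 27.2 CPM against 60.03 to 62.0 CPM. Of 25 germline genes 14 varied, or 6 without replicate 2 (9.42%), none by 1.5-fold, with replicate 1 highest in 14. Tdrd12, a piRNA factor, stood at 45.8, 31.3 and 40.6 CPM.

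Targets of the pathway that the inhibitors address varied as well. Of 14 BMP-SMAD target genes 9 varied, or 3 without replicate 2, and 3 spanned 1.5-fold. Among controls 0 varied. The median CV was 13.7% against 4.56% in controls. Id1, an inhibitor of differentiation, was at 6.10, 8.08 and 7.94 CPM, while controls were at 1.29, 1.87 and 1.96 CPM. Its CV of 13.5% was below the 17.1% of controls. Id3, from the same family, was at 32.2, 40.9 and 33.9 CPM, with replicate 2 apart, and controls were at 30.2 to 31.6 CPM. Id2 had 36.7, 38.0 and 34.6 CPM, which missed the threshold (edgeR's goodness-of-fit test, adjusted p = 0.136). Smad7, the inhibitory SMAD induced by BMP and TGF-beta receptors, was at 16.7, 22.3 and 14.7 CPM against 12.7 to 13.2 CPM. No BMP-inhibited value of Id1 or Id3 lay below the control range. The levels of Id3 and Smad7 in replicate 2 were the farthest from control, not the nearest.

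Among BMP pathway components 13 of 23 varied (median CV 7.45%), 2 of them by 1.5-fold, and 4 varied without replicate 2. Bmp4, the ligand named in the series' design text, was at 33.6, 28.6 and 33.0 CPM against 23.7 to 25.7 CPM in controls. Bmp8a and Bmp8b, a pair of closely related ligands, spread further, at 2.39, 0.962 and 1.31 CPM and at 0.839, 1.22 and 2.53 CPM, and the split of reads between them is uncertain. Fst, follistatin, which binds activin and BMP ligands, was at 15.1, 16.9 and 13.2 CPM. Of 13 WNT response genes 5 varied, or 0 without replicate 2, and none of the 5 spanned 1.5-fold. Among controls 1 varied and spanned 1.5-fold.

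All 14 tested genes of the nodal and TGF-beta response varied, against 1 of 14 in controls, in cultures that all received SB431542. Leaving out replicate 1 or 2 left 7 and 5 that varied. The median CV was 10.4%, and replicate 2 was the highest in 9. Tgfbi, a secreted matrix protein, stood at 6.23, 9.27 and 5.30 CPM against 24.3 to 27.0 CPM in controls. Lefty2, a feedback inhibitor of nodal, stood at 0.258, 0.834 and 0.730 CPM, from 8, 26 and 24 reads. Thus replicate 2 lay towards the controls for Tgfbi and Lefty2, as it did in 8 of the 12 members whose groups did not overlap. Over all genes whose groups did not overlap, the share of replicate 2 was 47.7%, so this count is not read as particular to the list.

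**Figure D4:**
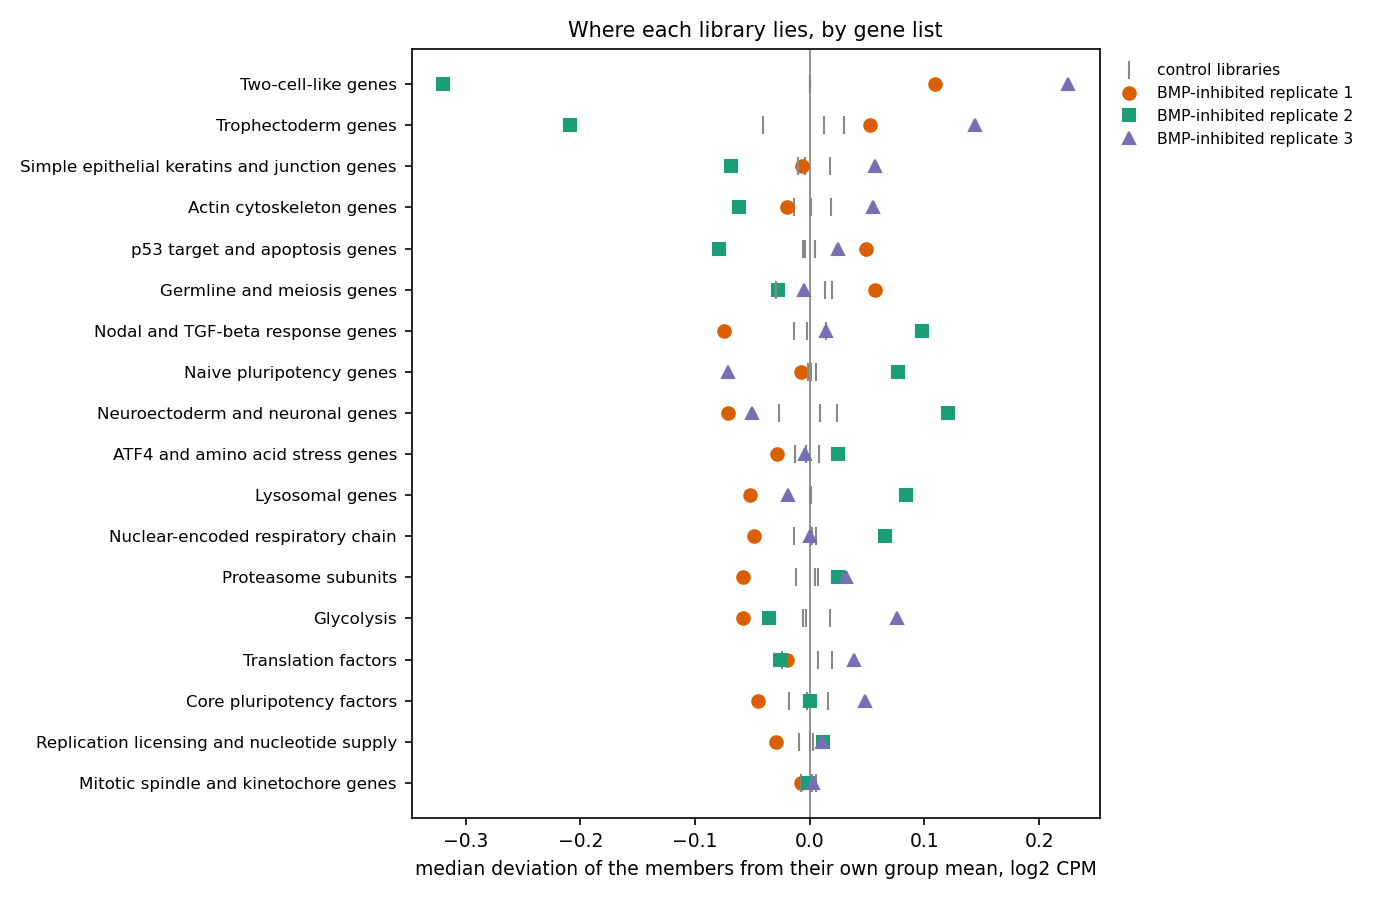
Median deviation of a list's members from their own group mean (horizontal, log2 CPM) in each BMP-inhibited library (coloured symbols) and each control library (grey ticks). Replicate 2 lies at -0.32 for two-cell-like genes and at 0.077 for naive pluripotency genes, while control ticks in the lists drawn lie between -0.041 and 0.030. The control ticks of two-cell-like genes, at 0, come from levels near 0 CPM.

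Genes of the amino acid stress response driven by the factor ATF4 varied to an intermediate degree. Of 27 members 19 varied (median CV 7.06%, 1.14% in controls), or 13 without replicate 2 or without replicate 3, and 3 spanned 1.5-fold, Slc7a11, Chac1 and Cebpb. Chac1, which degrades glutathione, was at 17.04, 32.0 and 19.9 CPM, with controls at 76.1, 79.4 and 76.7 CPM. The 3 control values lay together and replicate 2 stood apart from the other BMP-inhibited cultures, at a ratio of 1.88 (log2 0.91, counting SE 0.078). Slc7a11, the cystine transporter, was at 1.42, 0.995 and 0.670 CPM, from 44, 31 and 22 reads, and a ratio of 2.12. With offsets over GC content and length it lost its call at a ratio of 1.93. The order of the cultures differed between the 2 genes, as replicate 2 was in the middle for Slc7a11.

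Both genes carry the C/EBP-ATF composite element, searched as TGATGNAAN on both strands in the 250 bases before each annotated start. The RefSeq windows of build GRCm38.p6 are shown because these are the ATF4 list members that varied, spanned 1.5-fold and hold the element, which is in capitals. The element was found in 8 of the 24 list members with a window (33.3%) and in 3.89% of 27025 genes with one. A match is a description of the letters and not a measured site.
Slc7a11, chr3:50443614-50443863, minus strand: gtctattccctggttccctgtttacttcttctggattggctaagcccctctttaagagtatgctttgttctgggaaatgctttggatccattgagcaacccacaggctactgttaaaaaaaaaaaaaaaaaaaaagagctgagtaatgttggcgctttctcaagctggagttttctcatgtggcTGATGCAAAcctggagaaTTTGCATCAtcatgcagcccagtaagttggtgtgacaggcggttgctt
Chac1, chr2:119350992-119351241, plus strand: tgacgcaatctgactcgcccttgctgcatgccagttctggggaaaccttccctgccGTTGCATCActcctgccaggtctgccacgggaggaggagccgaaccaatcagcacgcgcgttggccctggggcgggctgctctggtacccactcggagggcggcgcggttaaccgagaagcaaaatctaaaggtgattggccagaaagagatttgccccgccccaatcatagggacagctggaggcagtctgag
Slc7a11 holds 2 matches, 1 on each strand, and Chac1 holds 1.

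The SMAD1/5 element, searched as GGCGCC, was found in 4 of the 8 BMP-SMAD targets with a window (50%) and in 10.8% of all genes with one. The 4 were Id2, Id4, Gata2 and Gata3, named here after their values were seen, and none of them spanned 1.5-fold. The Id2 window is shown as that of a gene with the element whose 3 levels lay within 1.1-fold.
Id2, chr12:25096093-25096342, minus strand: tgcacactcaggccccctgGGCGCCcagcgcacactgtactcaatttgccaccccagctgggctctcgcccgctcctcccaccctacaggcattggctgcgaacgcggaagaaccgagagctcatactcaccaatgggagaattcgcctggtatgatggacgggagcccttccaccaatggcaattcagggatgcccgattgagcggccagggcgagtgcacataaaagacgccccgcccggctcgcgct

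Metabolic and housekeeping lists moved by a few percent, yet often as a block. Of 23 glycolytic genes, counting Aldoa under its 2 gene identifiers, 20 varied (median CV 5.98%, 1.74% in controls), with replicate 3 highest in 13 and replicate 1 lowest in 14. With GC and length offsets replicate 1 was lowest in 11 and replicate 2 in 12. Ldha, lactate dehydrogenase A, was at 725, 672 and 825 CPM against 301 to 307 CPM in controls. Bnip3, a mitophagy receptor induced by hypoxia, followed with 35.5, 27.8 and 42.2 CPM. Replicate 2 was the nearest to control in 18 of the 22 hypoxia response genes whose groups did not overlap, and for both Ldha and Bnip3. Its share over all genes whose groups did not overlap was 47.7%.

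Respiratory chain and lysosomal genes were highest in replicate 2. Of 38 nuclear-encoded respiratory chain genes 30 varied (4.58%), or 17 and 14 without replicate 1 or 2, with replicate 2 highest in 25. Of 28 lysosomal genes 18 varied (4.89%), or 5 without replicate 2, with replicate 2 highest and replicate 1 lowest in 19 each. Ctsa, a lysosomal carboxypeptidase, was at 222, 277 and 243 CPM against 445 to 450 CPM in controls. Ndufa1, a complex I subunit, was at 26.0, 33.0 and 24.5 CPM. With GC and length offsets, replicate 2 was still highest in 21 respiratory chain and 18 lysosomal genes.

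Proteasome and ribosomal genes showed how far the order of cultures can depend on such offsets. Of 32 proteasome subunits 27 varied, or 6 without replicate 1, with a median CV of 3.26%, and replicate 1 was lowest in 28, or in 20 with the offsets. Of 77 cytosolic ribosomal protein genes 64 varied in BMP-inhibited libraries and 69 in controls, with median CVs of 3.19% and 3.44%. Without BMP-inhibited replicate 3, 37 varied in that group. Replicate 1 was the lowest in 43 ribosomal genes, but with offsets replicate 2 was the lowest in 41 and replicate 1 in 10. No order of cultures is therefore given for ribosomal proteins.

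Genes of replication, mitosis, aminoacyl-tRNA synthetases, ribosomal proteins and the proteasome were among the steadier lists. Of 6253 genes with a mean of at least 1000 counts in each group, 3202 stayed within 1.1-fold over the BMP-inhibited libraries (51.2%) and 5710 over the controls (91.3%). Over the pair left without BMP-inhibited replicate 1, 2 or 3, 4888, 4861 and 4067 did. By that measure 23 of 30 replication genes, 23 of 30 mitotic genes, 26 of 32 proteasome subunits, 17 of 20 aminoacyl-tRNA synthetases and 59 of 76 ribosomal genes were held. Translation factors were not steadier than the 51.2% background to the same degree, with 22 of 40 held and a median CV of 4.11%. The median CV was 2.93% for mitotic genes and 3.18% for replication genes. Mitotic genes were not uniform, as Cenpe, a kinetochore motor, stood at 165, 144 and 134 CPM. The 8 steadiest genes were Mrgbp, Isg20l2, Calu, Bcl7b, Usp36, Zmynd8, Dek and Ublcp1. Dek, a chromatin protein, was at 323, 323 and 324 CPM, and Mrgbp, a subunit of the NuA4 acetyltransferase complex, at 33.6 CPM in each culture. The 8 were chosen as the lowest ratios, so their closeness is a description with no test. For Mrgbp the log2 ratio of 0.0016 was far below its counting SE of 0.063. With GC and length offsets the ratios of the 8 ran from 1.00 for Usp36 to 1.08 for Bcl7b, with Mrgbp at 1.05.

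The most variable genes with a mean of at least 5 CPM did not share a single pattern. By the rule for large ratios at a mean of at least 5 CPM, 155 named genes qualified in BMP-inhibited libraries and 6 in controls. Scand1, a SCAN-domain protein, had the largest ratio of these, 3.12. It stood at 25.5, 29.0 and 9.28 CPM, with controls at 14.1, 15.6 and 14.01 CPM. Replicate 3 alone lay below the control range, while the other cultures lay above it (edgeR's goodness-of-fit test, adjusted p = 8.04e-82). Its ratio was 2.48 with GC and length offsets.

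Rnf14, a ubiquitin ligase, was high in replicate 1 alone, at 93.8, 44.4 and 49.0 CPM, and controls were at 36.4, 37.2 and 38.0 CPM. Its ratio of 2.11 did not change with GC and length offsets (2.12). Lcor, a nuclear receptor corepressor, was likewise high in replicate 1, at 13.3, 7.80 and 6.66 CPM. Jund, an AP-1 subunit, was low in replicate 3 at 106, 118 and 69.5 CPM, where controls were at 69.8 to 75.1 CPM, and its ratio fell from 1.69 to 1.43 with the offsets.

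Replicate 2 was the odd one in several others. Thbs1, thrombospondin 1, stood at 10.4, 4.14 and 8.28 CPM against 0.276 to 0.422 CPM in controls. Zfp36l3, an RNA-binding protein of the placenta, stood at 7.58, 3.75 and 8.55 CPM against 0.117 to 0.221 CPM. Prtg, protogenin, a cell surface receptor of the early embryo, was at 10.49, 5.13 and 7.91 CPM. In these 3 genes replicate 2 was the lowest culture and the nearest to control. Cpe, carboxypeptidase E, was at 8.16, 17.9 and 9.56 CPM against 19.3 to 25.3 CPM, and Rapsn, a receptor-clustering protein of the synapse, at 4.13, 8.34 and 5.60 CPM against 12.8 to 13.8 CPM. These 2 were highest in replicate 2, again the nearest to control. Shisa8, at 12.7, 19.9 and 9.43 CPM, and Ppp1r14d, at 4.23, 8.15 and 4.87 CPM, were also highest in replicate 2. Controls were at 8.27 to 10.7 and 4.73 to 5.71 CPM. Replicate 2 lay above the control range in both genes and replicate 3 within it. Replicate 1 lay above it for Shisa8 and below it for Ppp1r14d. Ankrd33b and Zfp771 completed the list, with ratios of 1.98 and 1.97.

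**Figure D5:**
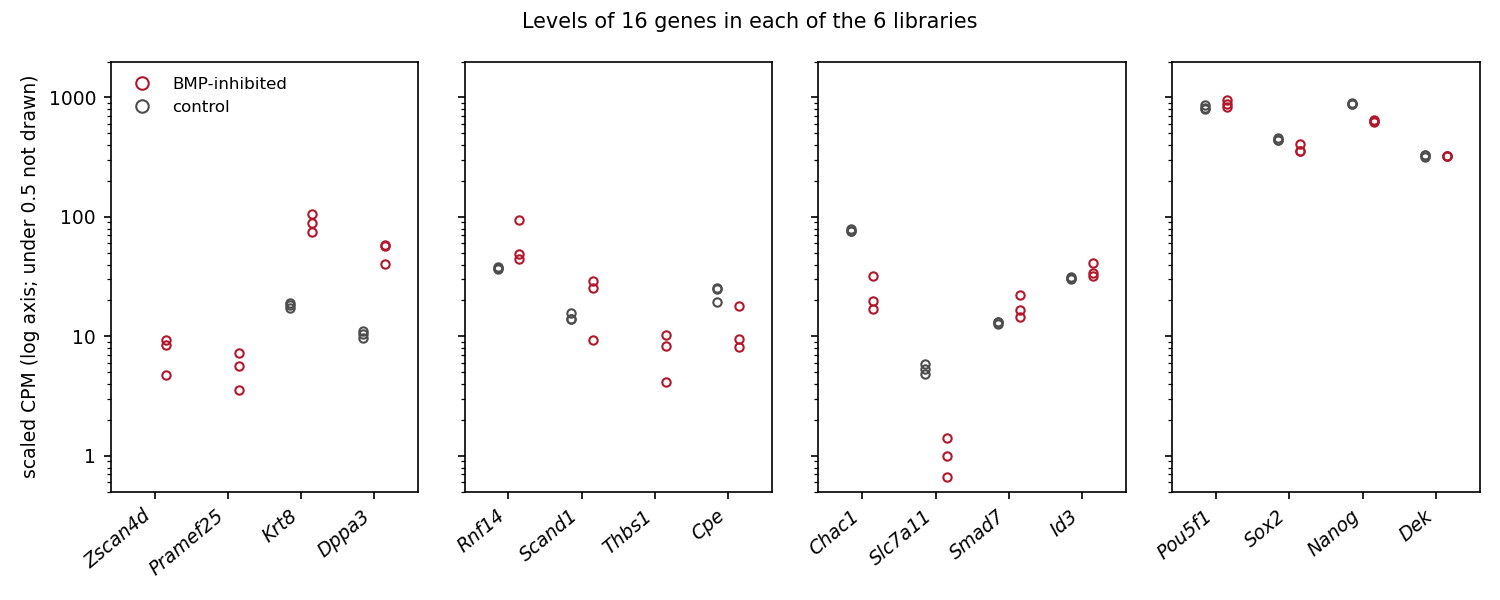
Scaled CPM (vertical, log axis) of 16 genes in each of the 3 BMP-inhibited (red) and 3 control (grey) libraries; values under 0.5 CPM are not drawn. Chac1, Rnf14 and Scand1 spread within BMP-inhibited cultures (17.04 to 32.0, 44.4 to 93.8 and 9.28 to 29.0 CPM) while their control values lie together, and Dek and Nanog are tight in either group.

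Scarce lineage genes gave large ratios from few reads. Tal1, a blood and endothelial factor, had 1, 19 and 15 reads in replicates 1, 2 and 3. Pdgfrb, a mesenchymal receptor, had 6, 40 and 12. Both varied by the test, and their groups overlapped. Gata6, a primitive endoderm factor, was at 1.84, 0.866 and 0.822 CPM.

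Some abundant nuclear regulators differed by smaller ratios. Tet1 and Tet2, which oxidise methylated cytosine, were at 476, 368 and 369 CPM and at 238, 172 and 187 CPM, highest in replicate 1. Their ratios of 1.30 and 1.38 were 1.16 and 1.24 with GC and length offsets. Malat1, a nuclear noncoding RNA, was at 338, 242 and 265 CPM in the same order. H1fx, a linker histone, was highest in replicate 2, at 34.0, 40.9 and 28.8 CPM, and fell from a ratio of 1.42 to 1.1 with the offsets.

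The genes with the largest control ratios at a mean of at least 5 CPM included some that spread less in BMP-inhibited cultures. Gulo, an enzyme of vitamin C synthesis, was at 8.23, 7.80 and 7.43 CPM in BMP-inhibited libraries, where it did not pass the test, and at 9.80, 6.12 and 9.40 CPM in controls. The mitochondrial ribosomal RNA mt-Rnr1 was at 343, 356 and 398 CPM against 185, 136 and 209 CPM. Control replicate 2 was low in both. Phyhip spread in either group, at 8.91, 14.7 and 9.10 CPM and at 5.91, 4.71 and 7.65 CPM, while Lurap1l had a control ratio of 1.52.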

How the data were processed

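The authors deposited raw read counts per gene, 1 table for each of the 6 libraries. Per the submitters' processing notes the build was GRCm38.p6, and the tools were HTSeq 0.9.1, STAR 2.6.1, DESeq2, cutadapt 1.4.2 and CASAVA 1.8.2, with no roles given. Strand setting and annotation release are not given in the sources used here, so genes that overlap another gene are uncertain. Rows naming no gene held 25.6% to 26.4% of reads and were left out. Symbols came from GENCODE M21, which matched 53360 of 53465 genes.

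Filtering (filterByExpr, minimum count 10), TMM scaling and the goodness-of-fit test with dispersion 0 used edgeR 4.0.16 in R 4.3.3, with Benjamini-Hochberg adjustment over 15951 genes. Group means were not tested. Log2 CPM used a prior count of 2. Biological CV is the square root of the variance of scaled counts less their mean, over the mean. Depth was 31474666 to 35322844 counts per library. Standard errors cover counting error only, and the 95% interval of an SD is for sampling of 3 values. Tested on simulated Poisson counts for the 15951 genes of the BMP-inhibited group, the test recovered 56% of 50 genes changed 1.25-fold in 1 library, 80% at 1.5-fold, 94% at 2-fold and 100% at 4-fold, and called 4 unchanged genes.

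The members, the 51 gene lists and the rules were chosen with earlier results of these data known. Named genes were 7 fixed ones, the 14 with the largest ratio in BMP-inhibited and 5 in control libraries at a mean of at least 5 CPM, the 8 steadiest, and up to 4 varying members per list with the largest ratio. Some genes that these rules chose are not reported here. Promoter windows came from RefSeq, build GRCm38.p6. Alternatives were other scalings, filters, depths, tests, offsets over GC content and length (loess, span 0.3), DESeq2 1.42.0 dispersions and leaving out each library.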

Additional observations from a re-analysis of the deposited data

How the results depend on the processing

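No paired analysis was possible because no group means were compared, and the numbers did not pair the samples: deviations of same-numbered libraries correlated at -0.061, 0.0057 and 0.077 across genes. Under every alternative run, the excess of varying genes in BMP-inhibited libraries kept its direction. GC and length offsets changed which culture was most often lowest or highest in several lists, among them ribosomal proteins, glycolysis and core pluripotency factors (for the last, lowest in 9 for replicate 1 and, with offsets, in 9 for replicate 2). Requiring a mean of 50 counts in each group left 547 BMP-inhibited and 93 control genes spanning 1.5-fold, and DESeq2's dispersions with a likelihood ratio against Poisson gave 776 and 71, with 585 control genes varying; that ratio called 5413 BMP-inhibited genes. Genes without exon overlap, chosen after seeing the data like protein-coding genes, numbered 4886 and 984 varying, 195 control genes spanning 1.5-fold, and 1989 and 3580 held within 1.1-fold, since fewer genes were tested. Leaving out a library gave 4002 to 5741 varying and 551 to 869 spanning 1.5-fold among BMP-inhibited libraries, 529 to 978 and 106 to 168 among controls, and 4067 to 4888 held in BMP-inhibited libraries. Median CVs were then 3.34% to 4.95% and 0% to 0.478%, and 1.71% for controls thinned to equal means. The share of genes with the larger variance in BMP-inhibited libraries was 67.1% without a count filter, 75.1% above 50 counts, 68.6% with GC and length offsets, 71.7% for protein-coding genes and 57.1% to 74.8% leaving out a library. The F test's 2 adjusted calls became 0 with each other scaling, above 50 counts, after thinning, with offsets and in both gene subsets, 1 without a filter, and 0 to 2 leaving out a library. Replicate 2 was farthest in 48.3% of genes above 50 counts and 36.0% above 2-fold, and nearest to control in 46.7% without a filter and 49.3% above 50 counts. The nearest library has no value after thinning to equal means, which removes the group difference. Each named gene's ratio was compared under each other scaling and the offsets. Of these comparisons 15 lost and 5 gained their place, and 852 did not change. Gbx2, Slc7a11, Cebpb and Jund were among those that changed, with the offsets. Of the lists' member counts, each taken under 1 alternative, 66 moved by over 1.5 times and 684 did not. The causes were not tested. Depth limits scarce genes: of 50 simulated 1.25-fold changes 28 were called, but 22 of 22 above 1000 counts.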
